A study of Mus musculus with 8 samples.

Results

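The cells described here are the pro-B and large pre-B cells found among immune cells sorted from the mouse brain. They were chosen by their own counts: at least 1 unique molecular identifier (UMI, 1 counted RNA molecule) of Cd79a, at least 2 UMIs over Vpreb1, Igll1 and Dntt together, and none of Cd3e or C1qa. The gate took 744 of the 46314 cells that passed the filters in 8 libraries. CD45.2+ cells were isolated by Percoll centrifugation and sorting from the PBS-perfused brain parenchyma of wild-type (WT) C57BL/6J mice and App NL-G-F mice, in which the endogenous App gene carries a humanised Aβ sequence with the Swedish, Arctic and Iberian mutations. The labels give all mice as 16 weeks old and the study used males and females. Control mice received water, acute colitis mice received 2% dextran sulfate sodium (DSS) for 1 week, chronic colitis mice went through 3 cycles of 2% DSS and then water, each for 5 days, and food allergy mice were sensitised with ovalbumin and alum and then given ovalbumin by mouth. Each genotype and treatment had 1 library made with the 10x Genomics 5′ kit. Antibody hashtags divided each library, which gave 30 hashtag groups in all. The labels do not tie hashtags to mice, so p-values measure the spread between hashtag groups, which may be technical. Cells in vessels had been stained by intravenous anti-CD45, and since that label is not part of the counts, cells inside vessels and cells of the tissue cannot be told apart.

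B cells are built in ordered steps. Pro-B cells cut and join the V, D and J segments of the heavy chain with the Rag1 and Rag2 recombinase, and terminal transferase (Dntt) adds bases at the joints. A cell that makes a heavy chain displays it as the pre-B cell receptor together with the surrogate light chain of Vpreb and Igll1, divides as a large pre-B cell, and then falls back to rest as a small pre-B cell that rearranges its light chain. In adult mice these steps are best known from the bone marrow, where the cytokine IL-7 drives the early divisions.

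The surrogate light chain genes are shown first because the gate rests on them. Igll1 (16:16860671-16863985, minus strand, GENCODE vM21 on GRCm38) and Vpreb1 (16:16868403-16870843, minus strand) are neighbours on chromosome 16, and Vpreb2, the near copy of Vpreb1, stands farther along it (16:17980428-17981273, plus strand). The 429 coding bases of Vpreb1 and Vpreb2 differed at 9 positions, an identity of 97.9%, so the split of reads between this pair is uncertain. Coding bases 268 to 387 hold 6 of those differences, which are in capitals.
Vpreb1: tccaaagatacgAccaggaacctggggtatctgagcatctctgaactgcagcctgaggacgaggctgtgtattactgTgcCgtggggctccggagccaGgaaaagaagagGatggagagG
Vpreb2: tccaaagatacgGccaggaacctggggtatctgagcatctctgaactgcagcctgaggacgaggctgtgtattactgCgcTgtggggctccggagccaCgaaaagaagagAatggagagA
Igll1 and Vpreb1 were highest in the same gated cells, those that also held Dntt, and the 250 bases before the RefSeq start of each are printed for that reason (GRCm38.p6, chr16:16863986-16864235 and chr16:16869256-16869505, both minus strand). Capitals mark CAGGTG on either strand, an E-box form that the E2A protein encoded by Tcf3 binds. It stood 8 bases before the Igll1 start and 88 bases before the Vpreb1 start, and 17.2% of the 32851 RefSeq promoters held it in this window.
Igll1: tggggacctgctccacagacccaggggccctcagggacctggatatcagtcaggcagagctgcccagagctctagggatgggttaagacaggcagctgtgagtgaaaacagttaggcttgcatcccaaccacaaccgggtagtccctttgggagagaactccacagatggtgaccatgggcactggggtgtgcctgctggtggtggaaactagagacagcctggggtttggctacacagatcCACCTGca
Vpreb1: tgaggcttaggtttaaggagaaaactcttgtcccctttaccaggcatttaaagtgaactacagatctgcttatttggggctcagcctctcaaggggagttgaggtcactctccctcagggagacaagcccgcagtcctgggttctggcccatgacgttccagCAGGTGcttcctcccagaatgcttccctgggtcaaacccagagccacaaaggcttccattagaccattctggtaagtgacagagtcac
The promoters of Vpreb2, Rag1 and Cd79a held 1 match each and those of Dntt and Rag2 held none.

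Several facts of the series bear on what follows. Libraries held between 26988646 and 56307389 gene UMIs. Of 742 distinct barcodes among the gated cells, 2 occurred in more than 1 library. T cells of the hashtag groups fell into a low and a high set by the summed level of 10 immediate-early genes such as Fos and Junb, at most 1674 CPM (counts scaled to 1e6 UMIs) in 14 groups and at least 3103 CPM in 16 groups. The labels name no such division. All WT control and App control groups with 10 or more gated cells were in the low set.

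The label of the cells was checked against B-lineage genes outside the gate. Ebf1, an early B-lineage transcription factor, was detected in 98.1% of gated cells and Pax5 in 54.2%, whereas in T cells they stood at 1.76 and 0.284 CPM against 997 and 98.4 CPM in gated cells. The gate gene Igll1, whose detection the gate fixes, is given for the background of free RNA: it was detected in 95.0% of gated cells, but in 0.0901% of 9994 T cells with a median of 2966 UMIs and in 0.0370% of 5406 neutrophil-like cells with a median of 7131 UMIs, against 8606 UMIs in gated cells. Markers of other lineages were summed in the same way. Over gated cells the 7 T cell genes summed to 12.5 CPM, against 4196 CPM in T cells, with Cd3e at 0 by the gate. The 4 fibroblast genes were all at 0 UMIs. Of the 4 natural killer genes, which summed to 18.2 CPM, Gzma was at 0. The 7 macrophage and microglia genes summed to 134 CPM, almost all of it Lyz2 at 132 CPM, with C1qa at 0 by the gate. The 6 erythroid genes summed to 113 CPM and the 5 plasmacytoid dendritic cell genes to 154 CPM. The 6 plasma cell genes summed to 1013 CPM, of which 670 CPM was Mzb1, and ran from 588 to 1130 CPM over hashtag groups other than App acute colitis hashtag 5, which stood at 8940 CPM. The 8 neutrophil genes had a summed level that ran from 0 to 22408 CPM over the 16 hashtag groups and a median of 56.9 CPM. It was high in WT food allergy hashtag 5 (22408 CPM), WT chronic colitis hashtag 6 (6124 CPM) and App food allergy hashtag 7 (3989 CPM). The share of gated cells with any S100a8 UMI, 16.9%, was close to the 16.8% of T cells, and 8 gated cells held 10 or more S100a8 and S100a9 UMIs.

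Cells met the gate in different ways. Both Igll1 and Vpreb1 without Dntt were detected in 345 cells, and all 3 genes in 314 cells. A further 45 cells held Igll1 alone, 19 Dntt alone and 12 Vpreb1 alone. The summed UMIs of the 3 genes ran from 2 to 121 per cell with a median of 23, so most cells lay well above the threshold. Of the 55 cells just inside it, with 2 UMIs, 20.0% held Rag1, 49.1% Lef1 and 9.09% Ighd. Of the 233 cells just outside it, with 1 UMI, 17.6% held Rag1, 26.2% Lef1 and 12.9% Ighd. Among the 468 cells with 15 or more UMIs, 42.7% held Rag1 and 85.9% Lef1.

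Gated cells were rare in every library and uneven between hashtag groups. They made up 1.05% of kept cells in WT control (71 of 6747, exact 95% binomial interval 0.823 to 1.33), 0.893% in WT acute colitis (40 of 4479, 0.639 to 1.21), 1.67% in WT chronic colitis (89 of 5327, 1.34 to 2.05) and 0.894% in WT food allergy (41 of 4584, 0.643 to 1.21). In App NL-G-F mice they made up 2.82% in control (189 of 6700, 2.44 to 3.25), 0.446% in acute colitis (28 of 6282, 0.296 to 0.644), 1.65% in chronic colitis (95 of 5742, 1.34 to 2.02) and 2.96% in food allergy (191 of 6453, 2.56 to 3.40). These intervals cover counting error and not the spread between mice. App control and App food allergy were the highest libraries and App acute colitis the lowest.

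Within a library most gated cells carried 1 hashtag. In WT control, hashtag 5 held 66 of the 71 cells (3.20% of its kept cells), and hashtags 4, 6 and 7 stood at 0.109%, 0.0454% and 0.192%. In App control, hashtag 5 held 167 of 189 cells (9.73%), hashtag 4 stood at 1.31%, and hashtags 6 and 7 had 0 of 1560 and 0 of 1738 cells, counts that leave room for at most 0.192% and 0.173%. In App food allergy, hashtag 7 reached 6.19% and hashtags 4, 5 and 6 stood at 1.08%, 1.21% and 1.88%. In WT chronic colitis hashtag 6 reached 2.40%, hashtag 7 stood at 0.510% and hashtag 5 at 0.259%. App chronic colitis was more even, at 1.53%, 0.697%, 1.08% and 2.93% in hashtags 4 to 7. The remaining libraries stayed near or below 1%: WT acute colitis at 0.994%, 0.832% and 0% (0 of 108 cells, a limit of 2.78%), WT food allergy at 0.813%, 1.05% and 0.450%, and App acute colitis at 0.540%, 1.02% and 0.0932%. Across the 8 libraries the leading hashtag held between 50.5% and 93.0% of the gated cells.

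**Figure D1:**
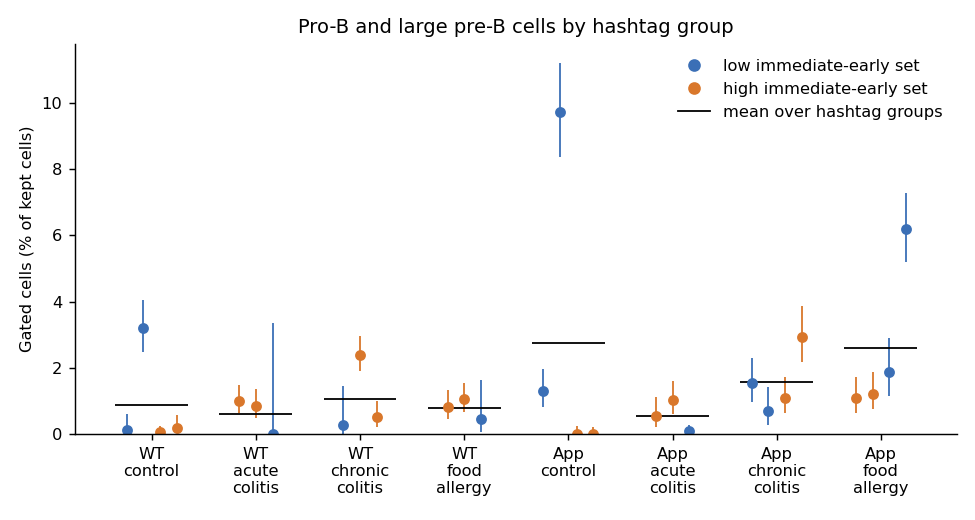
Gated cells as a percent of all kept cells (y axis) in each hashtag group with at least 100 kept cells, by library (x axis). Points are hashtag groups with exact 95% binomial intervals, coloured by low or high immediate-early set, and black lines are library means. A single group stands far above the others of its library in WT control (3.20%), App control (9.73%) and App food allergy (6.19%).

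The question was whether gut inflammation or the App NL-G-F genotype went with more or fewer of these cells. The mean share over hashtag groups with at least 100 kept cells was 0.887 ± 1.54% (SD, n = 4) in WT control, 0.609 ± 0.533% (n = 3) in WT acute colitis, 1.05 ± 1.17% (n = 3) in WT chronic colitis and 0.770 ± 0.300% (n = 3) in WT food allergy. In App NL-G-F mice it was 2.76 ± 4.69% (n = 4) in control, 0.550 ± 0.463% (n = 3) in acute colitis, 1.56 ± 0.976% (n = 4) in chronic colitis and 2.59 ± 2.42% (n = 4) in food allergy. Every treated library overlapped its control. No comparison passed the two-sided exact permutation test, with an adjusted p of 0.971 in all 8 comparisons. The smallest unadjusted p the design allows is 0.0571 for 3 against 4 groups and 0.0286 for 4 against 4. After adjustment over the 8 comparisons, no comparison of 1 library with another could have fallen below 0.05. Those tests therefore cannot decide whether shares differed. Without App control hashtag 5 all 3 treated App NL-G-F libraries stood above App control, by 0.115 (acute colitis), 1.125 (chronic colitis) and 2.16 points (food allergy), where with it they stood below. Over all treatments the share was 1.95 ± 2.64% in 15 App NL-G-F groups and 0.834 ± 0.956% in 13 WT groups, a difference of 1.03 points within treatment (permutation p = 0.185, adjusted p = 0.971).

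The order of control and treated libraries depended on the immediate-early set. In the high set, the 4 groups of the control libraries held 4 gated cells among 7064 and ran from 0 to 0.192%, while the 12 groups of treated libraries ran from 0.510 to 2.93% with a median of 1.03%. The highest high-set control group was below the lowest high-set treated group. In the low set the order did not hold: the 4 control groups ran from 0.109 to 9.73% and the 8 treated groups from 0 to 6.19%. These sets were defined from T cells of the same data, and the pooled order was seen after the shares were known and given no test. Within the high set the single comparisons of treated with control libraries had an adjusted p of 0.381 each by exact permutation. Each side had so few groups that no outcome could have passed, so these tests cannot decide whether shares differed.

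The neighbouring stage varied as much. Small pre-B-like cells were gated as Cd79a-positive cells without Vpreb1, Igll1 or Dntt that held Rag1 or Rag2 and no Ighd (1470 cells), and mature B-like cells as Cd79a-positive cells with Ighd and none of the other genes (1970 cells). In 20 hashtag groups the gated cells were between 3.70% and 63.2% of gated and small pre-B-like cells together, with a median of 32.8%. In WT control hashtag 5 there were 66 gated and 385 small pre-B-like cells, a share of 14.6% (11.5 to 18.2). In App control hashtag 5 there were 167 and 164 cells (50.5%), and in App food allergy hashtag 7 there were 134 and 108 (55.4%). WT control hashtag 5 was richer in small pre-B-like cells, relative to gated cells, than either of these App NL-G-F groups.

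The gated cells were large in RNA content. Their median was 8606 UMIs and 2846 genes per cell, against 2173 UMIs in small pre-B-like cells, 2365 in mature B-like cells and 9389 in Kit- or Cd34-positive progenitor-like cells. The levels that follow are sums of UMIs over cells as CPM, which scale out the total but in which deeper cells weigh more. Because the gate chose cells by related genes, the comparisons with other cell stages are a description without a test. Of 3659 genes with at least 50 CPM in gated or small pre-B-like cells, 11.3% were higher and 14.2% lower in the gated cells with no overlap between libraries. Against mature B-like cells 27.5% of 3619 genes were higher and 16.6% lower in the same sense. Counts of list members without overlap, given below, are to be read beside these shares.

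Among genes of the pre-B cell receptor, Igll1, the λ5 chain, ran from 897 to 1749 CPM over the 8 libraries with a median of 1259 CPM, and Vpreb1 from 489 to 1142 CPM with a median of 775 CPM. Vpreb2 was lower at 31.8 to 135 CPM. Vpreb3, a chaperone of the receptor outside the gate, was at 1978 CPM and was higher still in small pre-B-like cells (3425 CPM) and lower in mature B-like cells (752 CPM). The signalling chains Cd79a and Cd79b were at 1563 and 647 CPM in gated cells, below both later stages, where Cd79b reached 2191 and 2091 CPM. The heavy chain Ighm was at 704 CPM against 1757 and 2465 CPM. Of the 14 genes of this list, those above small pre-B-like cells in every library were Igll1 and Vpreb1, which the gates fix, and Vpreb2, the near copy of Vpreb1, and 6 were below.

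The recombinase was low in gated cells as a whole. Rag1 ran from 25.6 to 107 CPM over libraries and Rag2 from 35.8 to 116 CPM, against 362 and 187 CPM in small pre-B-like cells, which were chosen for these genes. Dntt, at 354 CPM over all gated cells, ran from 193 to 586 CPM. Xrcc6, the Ku70 subunit that binds broken ends, was at 228 CPM against 525 CPM in small pre-B-like and 44.6 CPM in mature B-like cells. Hmgb1, a chromatin protein that assists the recombinase, was at 3443 CPM against 2497 and 550 CPM. The end-joining genes Lig4, Xrcc4, Dclre1c and Prkdc were below 33 CPM and Nhej1 was below 1 CPM.

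Transcription factors went in both directions. Lef1 was at 224 CPM in gated cells (133 to 269 over libraries), 50.2 CPM in small pre-B-like cells and 16.2 CPM in mature B-like cells. Erg, a factor of early progenitors, was at 49.5 CPM against 1.27 and 0.640 CPM. Myb was shared with small pre-B-like cells (437 and 469 CPM) and low in mature B-like cells (47.5 CPM). Ebf1, Tcf3, Sox4, Bach2 and Spib were lower in gated than in small pre-B-like cells without overlap between libraries, Bach2 at 217 against 670 CPM and Spib at 116 against 504 CPM. Of the 18 factors with 50 CPM, 1 was above small pre-B-like cells without overlap and 9 were below, and Pax5 overlapped across all 3 stages at 98.4, 129 and 124 CPM.

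Genes of IL-7 signalling did not move as one. The receptor chain Il7r was at 310 CPM (254 to 356 over libraries), below small pre-B-like cells at 709 CPM and above mature B-like cells at 68.0 CPM. Cyclin D3 (Ccnd3), which early B cells need to divide, was at 1019 CPM against 559 and 260 CPM. Myc and Ccnd2 were at 124 and 65.6 CPM against 13.1 and 11.2 CPM in small pre-B-like cells, yet close to the 129 and 74.4 CPM of mature B-like cells. Socs2 was at 39.0 CPM against 9.08 and 4.16 CPM. The survival gene Mcl1 was lower than in both later stages, at 177 CPM against 339 and 674 CPM.

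Proliferation genes were high. Summed over 28 genes they reached 9293 CPM in gated cells, 7699 CPM in small pre-B-like cells, 3699 CPM in progenitor-like cells, 1403 CPM in mature B-like cells and 1009 CPM in T cells. All 27 that had 50 CPM were above mature B-like cells without overlap. The 9 that were also above small pre-B-like cells were genes of DNA copying, among them the clamp Pcna (324 against 145 CPM), the helicase subunit Mcm6 (391 against 144 CPM) and Tyms (207 against 72.6 CPM). Genes of mitosis overlapped with that stage, as for Mki67 at 546 and 597 CPM and Ube2c at 780 and 973 CPM. The small pre-B-like gate was thus not made up of resting cells alone.

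Of the 7 surface genes with 50 CPM, none lay above small pre-B-like cells without overlap and 3 lay below, beside 11.3% and 14.2% of all genes compared. Against mature B-like cells 2 of 7 lay above, close to the 27.5% of all genes, and 4 lay below, beside 16.6%. Kit (10.0 CPM), Flt3 (11.5 CPM) and Cd34 (4.20 CPM), genes of earlier progenitors, were low. Cd24a was at 2090 CPM, Cd93 at 137 CPM and Enpep, the BP-1 antigen, at 23.5 CPM, against 801, 27.7 and 0.960 CPM in mature B-like cells. Il2ra and Cd2, which mark small pre-B cells, were at 11.1 and 4.32 CPM against 119 and 145 CPM in small pre-B-like cells. The 16 light chain and maturation genes summed to 1050 CPM against 4947 CPM in small pre-B-like and 34240 CPM in mature B-like cells, and 15 of them were below mature B-like cells without overlap. Cd74, the invariant chain of antigen presentation, was at 336 against 19809 CPM, Ms4a1 (CD20) at 12.4 against 1209 CPM and the light chain constant gene Igkc at 201 against 1630 CPM. Among genes of retention and migration, Itga4, a subunit of the integrin VLA-4, was above small pre-B-like cells (206 against 148 CPM), the marrow retention receptor Cxcr4 was below them (69.9 against 175 CPM) and the egress receptor S1pr1 was at 7.41 CPM against 42.8 and 100 CPM.

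**Figure D2:**
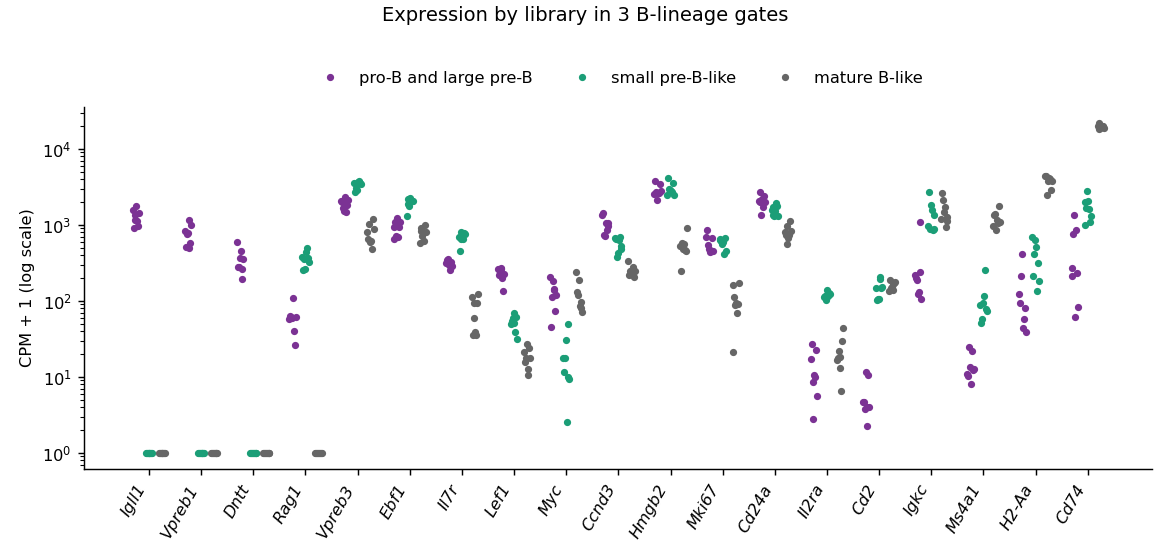
Level of 19 genes (y axis, CPM plus 1, log scale) in gated, small pre-B-like and mature B-like cells. Each point is 1 of 8 libraries. Genes at 0 in a gate lie at 1 on the axis. Lef1 and Ccnd3 are highest in gated cells, Vpreb3 and Il7r in small pre-B-like cells, and Cd74 and Ms4a1 in mature B-like cells.

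Leading genes outside the gate were found by the median log2 ratio of CPM with 10 added over libraries. Against small pre-B-like cells they were Impdh1 (3.29), Nrgn (2.79), Srm (2.77), Egfl7 (2.74), Mif (2.32), Cdk6 (2.29), Ramp1 (2.23), Igfbp4 (2.21), Shmt1 (2.15) and C1qbp (2.13). Impdh1 makes guanine nucleotides, Srm makes spermidine, Shmt1 feeds one-carbon units to nucleotide synthesis and Cdk6 is the kinase partner of D cyclins. The lowest were λ light chain genes, led by Iglv1 (-6.06) and Iglv2 (-4.83), followed by Igkv1-135 (-3.76), Dnajc7 (-3.40), Cd2 (-3.33), Slfn2 (-3.14), Adam19 (-3.04) and Il2ra (-2.71). Against mature B-like cells the highest were Hist1h1a (3.54), Pclaf (3.21), Nrgn (3.20), Lef1 (3.17), Hist1h1b (3.09) and Ramp1 (3.08), and the lowest Cd74 (-6.27), H2-Eb1 (-5.80), Fcmr (-5.73) and Ms4a1 (-5.66). These genes include replication histones on one side and antigen presentation genes on the other.

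Dntt split the gated cells into 342 cells in which it was detected and 402 in which it was not. The former held a median of 5056 UMIs and the latter 12774 UMIs, and since Dntt is part of the gate and detection depends on depth the contrast is a description. Dntt-detected cells were higher in all 8 libraries for Rag1 (184 against 9.28 CPM over all cells), Rag2 (197 against 27.8 CPM), Erg (150 against 4.64 CPM), Kit (28.9 against 1.61 CPM) and Foxo1 (163 against 51.0 CPM). Rag1 was detected in 61.7% of them, against 8.46% of the deeper cells without Dntt. The gate genes followed the same order, with Igll1 at 2453 against 859 CPM and Vpreb1 at 1747 against 444 CPM.

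Cells without Dntt were higher in all 8 libraries for Cd24a (2634 against 868 CPM), Ccnd3 (1132 against 766 CPM), Irf4 (127 against 36.1 CPM), Bach2 (269 against 100 CPM), Spib (135 against 75.4 CPM) and Cd22 (39.3 against 1.61 CPM). Irf4 acts with Spib and its relatives in turning on light chain genes. Il7r (338 and 298 CPM), Pax5 (97.9 and 98.7 CPM) and Mki67 (471 and 580 CPM) had no common order over libraries, Il7r being higher with Dntt in 5 of 8 and Mki67 in 2 of 8.

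**Figure D3:**
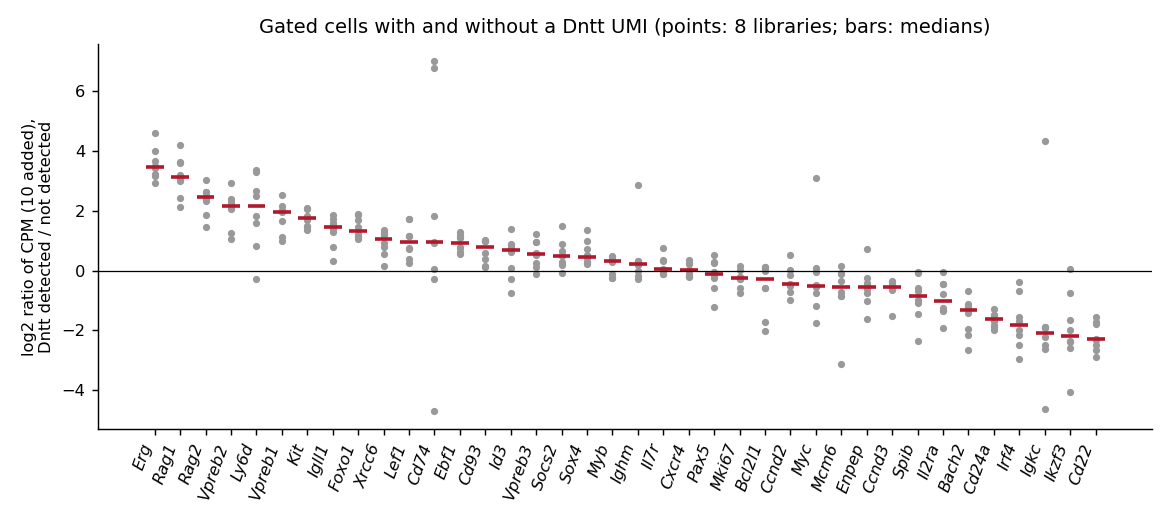
Log2 ratio of CPM, with 10 added, of gated cells with Dntt to gated cells without it (y axis) for each gene (x axis). Points are the 8 libraries and red bars are medians. Rag1, Rag2, Erg and Vpreb1 lie above 0 in all 8 libraries, and Cd24a, Irf4 and Cd22 below.

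The division into resting and cycling cells was similar. The summed UMIs of 12 mitosis genes were taken per 1000 UMIs of a cell. The 279 gated cells below 1 held a median of 3293 UMIs, with Rag1 at 245 CPM, Rag2 at 220 CPM, Igll1 at 2784 CPM and Ebf1 at 2051 CPM. The 376 cells at 2 or more held 12812 UMIs, with Rag1 at 26.9 CPM, Rag2 at 53.0 CPM, Igll1 at 1084 CPM and Ebf1 at 830 CPM. Ccnd3 went the other way, from 477 to 1127 CPM. A Rag UMI was detected in 75.6% of the former and, despite the greater depth, in 42.3% of the latter.

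Heavy chain V genes gave a readout that the gate did not use. The 5′ counts cover 183 annotated Ighv genes on chromosome 12, and a cell was said to show one V gene where it held at least 3 Ighv UMIs with at least 70% from 1 gene. This was so for 345 of 744 gated cells (46.4%, exact 95% interval 42.7 to 50.0), against 1131 of 1470 small pre-B-like cells (76.9%) and 1392 of 1970 mature B-like cells (70.7%). It was so for 28 of 342 cells with Dntt (8.19%, 5.51 to 11.6) and for 317 of 402 cells without Dntt (78.9%, 74.5 to 82.7). Cells without Dntt were also the deepest of these, so that the shares of stages are compared at equal depth below. Among cells that held at least 3 Ighv UMIs, 1 gene led in 95.2% of 333 cells without Dntt, which showed a median of 1 V gene, but in 30.8% of 91 cells with Dntt (21.5 to 41.3), which showed a median of 3. In the 63 of these that lacked a leading gene, the V genes with most UMIs were Ighv14-2 (46 UMIs), Ighv1-76 (31) and Ighv1-23 (24).

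Depth was taken out by thinning each cell to 1000 UMIs, which 3 gated cells did not reach. At that depth an Ighv UMI was left in 27.1% of cells with Dntt (22.4 to 32.1), 57.1% of cells without Dntt (52.1 to 62.0), 83.9% of small pre-B-like cells, 84.0% of mature B-like cells and 3.65% of T cells. Igkc followed the same order, at 3.53%, 24.4%, 46.9%, 61.3% and 1.85%, so that in cells with Dntt it was near the level of T cells. In 11 hashtag groups with at least 5 cells on each side, the share with an Ighv UMI was higher in cells without Dntt in 10 (median 54.5% against 28.6%).

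The V genes were diverse. The 345 cells used 82 of them, led by Ighv1-26 in 26 cells (7.54%), Ighv1-55 in 14 and Ighv6-3 in 12. The Ighv1 family made up 58.8% (53.4 to 64.1), against 51.7% in small pre-B-like and 57.4% in mature B-like cells, and the 25% of V genes nearest the D segments made up 19.1%, against 20.6% and 18.6%. In the hashtag groups richest in gated cells no single V gene led. App control hashtag 5 showed 32 V genes in 59 cells with at most 5 cells each, App food allergy hashtag 7 showed 37 in 53 cells with at most 4, and WT control hashtag 5 showed 25 in 30 cells with at most 3. WT chronic colitis hashtag 6 showed 21 in 37 cells, 5 of them with Ighv1-81, and WT food allergy hashtag 5 showed 6 in 10 cells, 4 of them with Ighv1-80. Joint sequences were not analysed here, so cells that share a V gene cannot be told to share a clone.

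The make-up of the gate was then compared between conditions in hashtag groups with at least 10 gated cells, at 1000 UMIs per cell. A cell was called cycling with at least 2 UMIs of the 12 mitosis genes, which held for 54.3% of all gated cells (50.6 to 57.9) and for 68.1% without thinning. It held for 36.2% of cells with Dntt (31.1 to 41.5) and 69.6% of cells without it (64.8 to 74.0), or 45.3% and 87.6% without thinning. Dntt was left in 30.9% of gated cells after thinning and was detected in 46.0% before it.

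App chronic colitis had more cycling and fewer Dntt-positive cells than App control, without overlap between groups, in a design too small to pass a test. Cycling cells made up 59.1%, 83.3% and 85.4% in its hashtags 4, 6 and 7, against 45.5% and 38.9% in App control hashtags 4 and 5. The means were 75.9 ± 14.6% (SD, n = 3) and 42.2 ± 4.62% (n = 2), a difference of 33.8 points (exact permutation p = 0.200, the smallest this design allows, adjusted p = 0.300). Dntt-positive cells made up 13.6%, 11.1% and 16.7% in App chronic colitis against 40.9% and 38.9% in App control, a difference of -26.1 points (exact permutation p = 0.200, adjusted p = 0.267). Both App control groups were in the low set and 2 of the 3 App chronic colitis groups in the high set. App chronic colitis has more hashtag groups than the animals named for it in the study, so groups may share an animal and p-values over them may be too small. In the low set alone, App chronic colitis hashtag 4 differed from the App control mean by 16.9 points in cycling and by -26.3 points in Dntt.

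App food allergy lay between. Its cycling cells made up 58.8%, 60%, 52.6% and 48.5% in hashtags 4 to 7, all above App control (difference 12.8 points, exact permutation p = 0.133, the smallest this design allows, adjusted p = 0.300). Its Dntt-positive cells ran from 0% in hashtag 4 to 40.3% in hashtag 7 and overlapped App control (difference -15.6 points, exact permutation p = 0.267, adjusted p = 0.267). Groups of the other libraries ran from 26.7% cycling in WT food allergy hashtag 4 to 75% in hashtag 5 of the same library, and from 8% Dntt-positive in WT acute colitis hashtag 4 to 60% in WT food allergy hashtag 4. WT control hashtag 5 stood at 67.7% and 36.9%. Over all treatments App NL-G-F groups (60.3 ± 15.4%, n = 10) and WT groups (59.4 ± 18.4%, n = 6) overlapped in cycling (permutation p = 0.857, adjusted p = 0.857) and in Dntt (23.6 ± 14.5% and 30.3 ± 17.3%, permutation p = 0.255, adjusted p = 0.267).

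**Figure D4:**
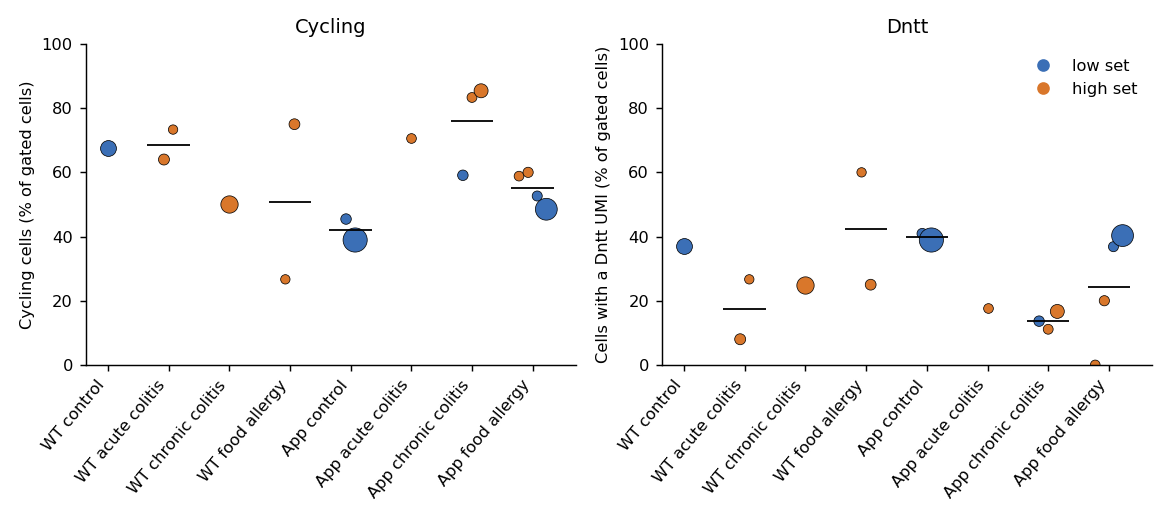
Cycling cells (left, y axis) and cells with a Dntt UMI (right, y axis) as percent of gated cells thinned to 1000 UMIs, by library (x axis). Circles are hashtag groups with at least 10 gated cells, coloured by low or high immediate-early set, with an area that grows with the number of cells, and black lines are means of libraries with more than 1 group. The App chronic colitis groups lie above the App control groups in cycling (59.1 to 85.4%) and below them in Dntt (11.1 to 16.7%).

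Expression between conditions was tested with edgeR's quasi-likelihood test on UMIs summed per hashtag group over 16 groups and 6095 genes, with the immediate-early set as a term and Benjamini-Hochberg adjustment. WT control, WT chronic colitis and App acute colitis had 1 group each, assumed to vary like the rest. The control groups were all in the low set, and the treated WT groups and the App acute colitis group were all in the high set. The effect of the set was thus estimated from App chronic colitis and App food allergy alone. In the WT treatment comparisons and in App acute colitis, treatment and set cannot be told apart. Igll1, Vpreb1, Dntt, Cd79a, Rag1, Rag2, Il7r, Ebf1 and Pax5 had adjusted p-values of 0.141 or more in all 8 comparisons. Igll1 ran from 650 CPM in App chronic colitis hashtag 4 to 1766 CPM in App control hashtag 5, Vpreb1 from 277 to 1170 CPM in hashtag 4 of the same libraries, and Dntt from 39.7 CPM in App food allergy hashtag 4 to 659 CPM in WT acute colitis hashtag 5. In App chronic colitis against App control Igll1 had a log2 fold change of -0.81 (SE 0.26, adjusted p = 0.799), Vpreb1 of -1.19 (SE 0.46, adjusted p = 0.899) and Mki67 of 0.74 (SE 0.22, adjusted p = 0.670).

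In App chronic colitis 2 genes rose (0.0328% of genes tested) and none fell, with 313 genes at an unadjusted p below 0.05. Without the immediate-early set as a term none rose and 6 fell. Irf8, a factor of B and myeloid cells, was at 295, 153 and 183 CPM in hashtags 4, 6 and 7 against 51.9 and 108 CPM in App control, without overlap (log2 fold change 1.51, SE 0.27, adjusted p = 0.0106). The call was lost with DESeq2 (adjusted p = 0.118) and without the set as a term (0.0651). It was also lost without App control hashtag 4 (0.0917), App control hashtag 5 (0.0516) or App chronic colitis hashtag 4 (1). By library, Irf8 in gated cells was lowest in App control, at 102 CPM. App chronic colitis, at 191 CPM, lay within the range of the WT libraries, 163 to 213 CPM. The other gene, the heavy chain segment Ighv4-1 (log2 fold change 10.02), was detected in 9 gated cells of the whole series. Of the 28 proliferation genes 26 had positive fold changes, with a median of 0.31 against -0.0039 over all genes, and none passed.

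In App acute colitis 5 genes rose (0.0820%) and none fell: Igkv15-103 (log2 fold change 12.93), Jchain (10.19), Ly6c2 (8.41), Igkc (3.77, SE 0.30, adjusted p = 1.93e-09) and Ighm (1.72, SE 0.24, adjusted p = 0.000163). All but Ly6c2 are genes of antibody production. They came with 1 cell of hashtag 5 that held 38128 UMIs, of which 1705 were Jchain, 8354 Igkv15-103, 447 Ighm and 7 Dntt, with Igll1 and Vpreb1 at 0. Without the 2 gated cells that held 20 or more Jchain UMIs no gene passed and Ighm had a log2 fold change of -0.63 (adjusted p = 0.996). In App food allergy 1 gene fell (0.0164%), Igkv15-103 (-3.67), and none rose, with 116 genes at an unadjusted p below 0.05. Without those 2 cells no gene passed there either.

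The WT comparisons and the comparison of control libraries gave more calls. In WT acute colitis 30 genes rose (0.492%) and Camk2d fell (0.0164%, log2 fold change -1.54), in WT chronic colitis 41 rose (0.673%) and 2 fell (0.0328%), and in WT food allergy 16 rose (0.263%) and Pkig fell (0.0164%, -1.29). In App control against WT control 66 rose (1.08%) and 4 fell (0.0656%). Apart from antibody genes and Ly6c2, the risers included Polr2l, a small subunit of RNA polymerases (log2 fold change 3.32 for WT acute colitis, 3.52 for WT chronic colitis and 4.2 for App control), and ribosomal protein genes, such as Rps29 (2.55 in WT acute colitis and 2.90 in App control), Rps28 (2.37 in WT acute colitis) and Rpl38 (2.77 in App control and 1.58 in WT food allergy). Of the 66 genes higher in App control, 16 encode ribosomal proteins and 15 respiratory chain subunits, and 59 have a median transcript length under 1000 bases. The median of these lengths was 504 bases, against 1090 bases over all genes tested. The shares of these classes among all genes tested were not counted.

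These shifts were not particular to gated cells. All 66 genes higher in App control than in WT control had the same sign in T cells and in mature B-like cells of the same libraries, with median log2 ratios of 1.18 in both. Of the 30 in WT acute colitis 30 and 28 did so, and of the 41 in WT chronic colitis 39 and 40. Rps29 was at 555 CPM in gated cells of WT control and between 1566 and 3835 CPM in the other 7 libraries, and in T cells at 804 CPM and between 1816 and 4729 CPM. In mature B-like cells it was at 871 CPM and between 1767 and 4314 CPM. WT control was thus lowest for Rps29 in all 3 kinds of cells, and with 1 library per condition library and condition cannot be told apart.

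Some calls were of genes with known roles in these cells. In WT chronic colitis the mitotic kinase Cdk1 was called lower, at 183 CPM in hashtag 6 against 421 CPM in WT control hashtag 5, with 1 group on each side, so that its p rests on the spread of the other libraries (log2 fold change -1.34, SE 0.32, adjusted p = 0.0394), as was the mitotic motor Kifc1 (-2.30). The Cdk1 call was lost on leaving out any one of 7 App NL-G-F groups. Cdk1 was the sole proliferation gene called in any comparison, and 3 of the 28 had positive fold changes there, with a median of -0.40. Zfp36, which destabilises inflammatory messenger RNA and is an immediate-early gene, rose in WT food allergy (1.64, SE 0.35, adjusted p = 0.0272), with 475 and 328 CPM in hashtags 4 and 5 against 120 CPM in WT control hashtag 5. Clk1 (2.37), Pdcd4 (2.92) and Ly6c2 (6.26) rose beside it, Ly6c2 having 3.08 and no call without App chronic colitis hashtag 4. All 10 immediate-early genes had positive fold changes in that comparison, and the WT food allergy groups were in the high set whereas the WT control group was in the low set. In WT chronic colitis Jchain rose by 4.76 on the log2 scale, but had -0.18 without the 8 cells that held S100a8 and S100a9.

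**Figure D5:**
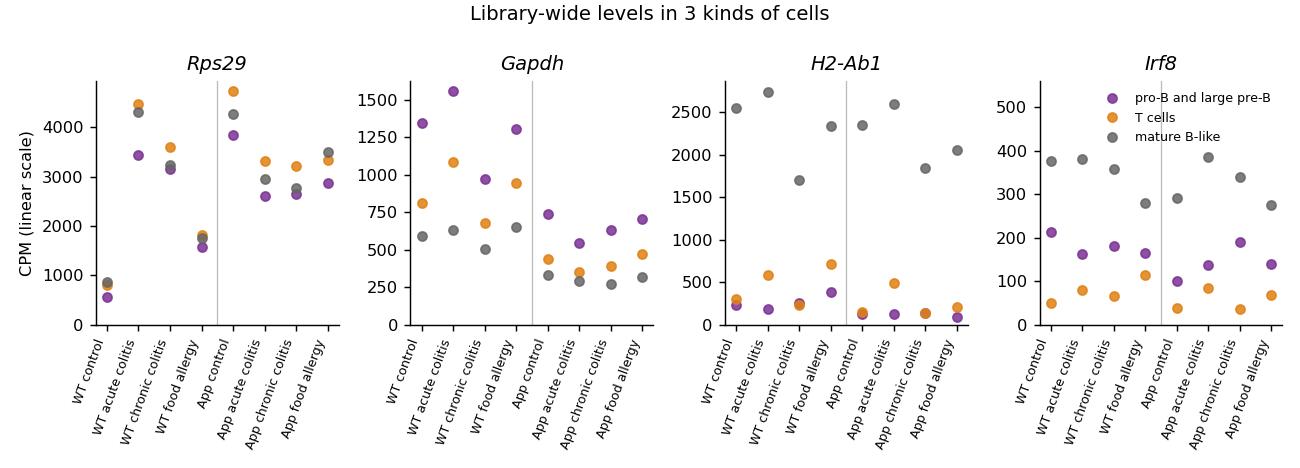
Level of Rps29, Gapdh, H2-Ab1 and Irf8 (y axes, CPM) in each of the 8 libraries (x axes) in gated, T and mature B-like cells. Rps29 is lowest in WT control in each kind of cell, and H2-Ab1 is lower in gated cells of App NL-G-F libraries than of WT libraries.

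Over all treatments 39 genes rose (0.640%) and 7 fell (0.115%) in App NL-G-F against WT gated cells. H2-Ab1, a chain of the class II antigen presenting molecule, was lower, between 59.5 and 153 CPM in 10 App NL-G-F groups and between 151 and 436 CPM in 6 WT groups, with the groups overlapping at their edges (log2 fold change -0.99, SE 0.16, adjusted p = 0.000901). The highest H2-Ab1 count in 1 gated cell was 132 UMIs. Leaving out 1 hashtag group at a time gave log2 fold changes from -1.19 to -0.83. In mature B-like cells, where H2-Ab1 was far higher, the libraries overlapped at 1844 to 2596 CPM in App NL-G-F and 1707 to 2734 CPM in WT. T cell libraries ran from 135 to 491 CPM in App NL-G-F and from 233 to 720 CPM in WT. App NL-G-F was the lower of the 2 genotypes in T cells within each treatment. The glycolytic genes Gapdh (-0.91) and Eno1 (-0.89), Erh (-1.01) and Akirin2 (-1.64) were also lower. Gapdh was at 543 to 735 CPM in App NL-G-F libraries and at 972 to 1560 CPM in WT libraries. The genes that rose were led by Jchain (2.77), mt-Atp8 (1.42), Rps29 (0.88), the glutathione synthesis subunit Gclm (0.86) and Gm10282 (0.78), and included Igkc (0.75) and Ighm (0.56). The 7 lower genes had the same sign in T cells and mature B-like cells in 7 of 7 cases, and the 39 higher genes in 38 and 36 cases. Jchain turned to -1.34 without App acute colitis hashtag 5, and Rps29 had 0.21 and no call without WT control hashtag 5. App acute colitis hashtag 5 was also highest for Igkc (1698 CPM) and Ighm (2576 CPM), and 1 of its cells held 328 and 447 of these UMIs. The other App NL-G-F groups ran from 97.2 to 269 CPM for Igkc and from 512 to 836 CPM for Ighm. They overlapped the WT groups, which ran from 119 to 214 CPM and from 514 to 750 CPM.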

How the data were processed

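The deposited matrices hold raw UMI counts per gene and barcode for all barcodes, without normalization, which the authors produced with Cell Ranger (6.1.2 in the submitters' processing notes, version 4 in the matrix headers) on mm10. Between 685270 and 714379 barcodes per library were listed. Barcodes with at least 500 gene UMIs, at least 200 genes, at most 5% mitochondrial UMIs and a top hashtag count of at least 50 and at least 3 times the second were kept. Doublets of different hashtags fall to this ratio, and no other doublet caller was run. Genome coordinates came from GENCODE vM21 and sequences from RefSeq and GENCODE on GRCm38. The 7 genes looked up in the promoter table all matched. All 8 libraries were used, each column had a sample (0 columns unmapped), and V(D)J libraries were not analysed here.

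UMIs were summed per hashtag group with at least 10 gated cells and tested with edgeR 4.0.16 in R 4.3.3 (TMM factors, default expression filter, robust quasi-likelihood fit), with the 8 conditions and the low or high immediate-early set as terms. The threshold was an adjusted p of 0.05, and DESeq2 1.42.0 was an alternative. Shares were compared by exact permutation over hashtag groups with at least 100 kept cells, or by 100000 permutations within treatment. Python 3.11.15 with numpy 2.4.6, scipy 1.17.1, pandas 2.3.3 and matplotlib 3.10.9 was used. The gene test was tested on simulated data with known changes. CPM are counts divided by the summed gene UMIs of the same cells. The members of the gate, the gene lists and the tests were chosen with earlier results of these data known. The genes named were those of the gate, members of the fixed lists with up to 6 examples each, the 5 genes that rose and the 5 that fell most among those past the threshold in a comparison, and the 15 genes with the highest and lowest ratio to each neighbouring stage. The lists also held 12 interferon-stimulated genes, which summed to 402 CPM in gated cells, 8 glucocorticoid targets (386 CPM) and 6 plasma cell genes (1013 CPM).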

Additional observations from a re-analysis of the deposited data

Results flagged for a closer look

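Among 19 sets of hashtag groups checked, 3 held a group that stood apart from the others of its library, where chance flags about 1 in 20 groups. All 3 were shares of gated cells among kept cells, in libraries with 4 groups. In WT control, hashtag 5 stood at 3.20% and the next group at 0.192%. In App control, hashtag 5 stood at 9.73% and the next at 1.31%. In App food allergy, hashtag 7 stood at 6.19% and the next at 1.88%. All 3 groups were in the low immediate-early set. Thinned to 1000 UMIs per cell before the gate, their shares were 1.98%, 6.75% and 4.17%.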

How the results depend on the processing

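No share of gated cells, cycling cells or Dntt-positive cells passed the test under any alternative, with 276 tests and a smallest adjusted p of 0.131. Apart from the comparison of genotypes over all treatments, the main tests of shares had too few groups to pass whatever the data. Leaving out groups or splitting them by set left fewer still. The lack of a pass therefore does not show that shares were alike. The direction of small differences in the share of gated cells (in percentage points, treated minus control) turned in several. WT chronic colitis turned to -0.110 with a gate of 1 UMI, -0.101 with thinning before the gate and -1.40 in the low set. As a share of B-lineage cells WT food allergy turned to 3.74, App chronic colitis to 0.251 and App food allergy to 4.52, and as a share of cells that are not neutrophil-like WT food allergy turned to 0.140, as it did with thinning (0.0252). In the high set WT acute colitis stood at 0.794, WT food allergy at 0.811, App acute colitis at 0.779, App chronic colitis at 2.01, App food allergy at 1.15 and App control minus WT control at -0.119. For cycling and Dntt-positive cells the low set held 1 WT group, WT control hashtag 5. The App NL-G-F minus WT difference there set App control hashtags 4 and 5 against this group alone. It was -25.5 points in cycling cells and 2.99 points in Dntt-positive cells, and cannot be read as a genotype difference. The cause was not tested.

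Leaving out 1 hashtag group at a time, the difference in share ran from -0.559 to 0.493 in WT acute colitis, -0.503 to 0.939 in WT chronic colitis, -0.398 to 0.654 in WT food allergy, -3.13 to 0.115 in App acute colitis, -2.12 to 1.125 in App chronic colitis, -1.37 to 2.16 in App food allergy, -0.452 to 2.79 in App control minus WT control and 0.454 to 1.26 in App NL-G-F minus WT. Cycling differences ran from 29.0 to 42.2 (App chronic colitis), 9.54 to 16.1 (App food allergy) and -6.48 to 10.7 (App NL-G-F minus WT), and Dntt differences from -27.5 to -24.8, -21.0 to -7.54 and -10.9 to -2.15. Shares turned direction in WT chronic colitis without any 1 WT control group other than hashtag 5 or without its own hashtag 6, in WT acute colitis and food allergy without WT control hashtag 5 or 1 group of their own (hashtags 6 and 7), in the App comparisons without App control hashtag 5, and in App food allergy without its own hashtag 4, 5 or 6. Genes called ran from 21 to 49 in WT acute colitis (49 without App food allergy hashtag 4), 31 to 80 in WT chronic colitis (80 and 72 without WT food allergy hashtags 4 and 5) and 6 to 57 in WT food allergy (57 and 32 without its hashtags 5 and 4, and 6 to 11 without App control hashtag 4 or 5, App chronic colitis hashtag 4, 6 or 7, or App food allergy hashtag 5, 6 or 7). They ran from 4 to 10 in App acute colitis (9 or 10 without WT acute colitis hashtag 5, WT food allergy hashtag 4 or 5, or App food allergy hashtag 4) and 0 to 5 in App chronic colitis (0 without App control hashtag 5 or App chronic colitis hashtag 4, 5 without WT food allergy hashtag 4 or 5). They ran from 0 to 3 in App food allergy (0 without WT food allergy hashtag 5, App acute colitis hashtag 5 or App food allergy hashtag 6 or 7, 2 without hashtag 4 of either food allergy library, 3 without App control hashtag 4). They ran from 38 (without App control hashtag 5) to 105 in App control against WT control, and from 8 (without WT control hashtag 5) to 92 (without App acute colitis hashtag 5), with 70 without WT food allergy hashtag 5, in App NL-G-F against WT. Cycling turned without WT chronic colitis hashtag 6 or WT food allergy hashtag 4. Jchain in App NL-G-F against WT ran from -1.34 to 5.37 (1.42 without App control hashtag 5, 5.37 without WT chronic colitis hashtag 6) and Rps29 from 0.21 (without WT control hashtag 5) to 1.25. Ly6c2 ran from 3.08 to 7.29 in WT food allergy, 2.57 to 6.79 in WT chronic colitis and 5.24 to 12.81 in App acute colitis, lowest without App chronic colitis hashtag 4 and, in the last, highest without App control hashtag 5. Without App control hashtag 5 Jchain in App acute colitis had 15.43, Irf8 in App chronic colitis 2.35 and Gm42047 in App control against WT control -1.97, and without App food allergy hashtag 7 Igkv15-103 in App food allergy had -6.02. In WT food allergy the calls of Clk1, Pdcd4, Zfp36 and Pkig were lost on leaving out any one of 7, 10, 4 and 4 groups, and in App NL-G-F against WT those of Eno1 and Akirin2 were lost without WT control hashtag 5.

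Genes called also moved with the model. With DESeq2 there were 26 in WT food allergy, 1 in App chronic colitis and 3 in App food allergy. Without the expression filter there were 49, 74, 69, 23, 12 and 15 in the WT and App acute colitis, chronic colitis and food allergy comparisons in that order and 106 between the controls. Without the immediate-early set as a term they were 59, 80 and 28 in the WT comparisons in the same order, 14 in App acute colitis and 6 in App chronic colitis, where all 6 were lower and the 2 calls with the term were higher. With at least 20 gated cells per group they were 133, 134 and 80 in WT, 64 in App chronic colitis, 20 in App food allergy, 204 between the controls and 145 between genotypes, and App acute colitis could not be fitted. With a gate of 3 UMIs there were 6 in WT food allergy and 0 in App food allergy. Cells of 2 kinds were left out after seeing the data: without cells of 20 or more Jchain UMIs there were 0 calls in App acute colitis and App food allergy, and without cells of 10 or more S100a8 and S100a9 UMIs 0 in App food allergy. Jchain turned to -1.67 between genotypes with at least 20 cells and, in WT chronic colitis, to -0.56 with a gate of 3 UMIs and -0.18 without S100a8 and S100a9 cells. Ighm in App acute colitis turned to -0.63 without Jchain cells. The cause was not tested.

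No paired analysis was possible because hashtag numbers are not tied to animals and the labels give each condition 1 library. Hashtag groups with 15 to 25 gated cells limit each single value.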

Other observations

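The 12 interferon-stimulated genes had positive fold changes for 6 of the 6 tested in WT food allergy, in WT chronic colitis and in both App chronic colitis and App food allergy against their controls, with medians of 2.32, 2.01, 0.41 and 0.62 on the log2 scale, and none passed edgeR's test after adjustment. In WT and App acute colitis 5 and 4 of 6 were positive. Over all treatments 0 of 6 were positive in App NL-G-F against WT, with a median of -0.98. The median over all genes tested lay between -0.0273 and 0.0172 in these comparisons. Summed over the 12 genes, WT control hashtag 5, the sole WT control group fitted, stood at 341 CPM. WT chronic colitis hashtag 6 stood at 575 CPM and WT food allergy hashtags 4 and 5 at 1364 and 479 CPM. App control hashtags 4 and 5 stood at 346 and 254 CPM. App chronic colitis groups ran from 295 to 366 CPM and App food allergy groups from 219 to 649 CPM. In gated cells Bst2 was at 104 CPM and Ifi27l2a at 147 CPM, against 218 and 598 CPM in T cells. Of the glucocorticoid targets with 50 CPM, 2 of 4 were below small pre-B-like and 2 of 3 below mature B-like cells without overlap. The shares of all genes compared were 14.2% and 16.6%. Tsc22d3 was at 149 CPM against 500 CPM in small pre-B-like and 797 CPM in mature B-like cells. Mzb1, a chaperone of IgM assembly known from plasma cells, was detected in 95.2% of gated cells at 670 CPM, above the 427 CPM of mature B-like cells, while Jchain was detected in 5.51% of gated cells and 5.74% of T cells.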
